A study of Mus musculus with 13 samples.

Results

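The potassium channel genes described here have symbols that begin with Kcn. They were taken from bulk RNA-seq counts of the mouse enamel organ, the epithelial tissue of the tooth that lays down enamel. Of 99 such symbols in the count table, Kcnip1 to Kcnip4 and Kcnd1 to Kcnd3 were left out by name and 2 more because their symbols end in os. The 90 symbols that remained held 3 antisense RNAs (Kcnq1ot1, Kcnmb4os1 and Kcnmb4os2), which encode no channel, so the set described is 87 protein-coding channel genes of 48709 genes in the table. The rule used symbols and no measured value. A gene was called expressed where it had a CPM (its counts scaled to a common library total) of at least 1 in at least 5 libraries.

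Tissue was dissected from lower incisors at postnatal day 11. The 5 Het libraries came from mice carrying 1 copy of the Tgfbr2 substitution G357W and 1 wild-type copy, a mouse line labelled LDSR2, and the 8 WT libraries came from littermates with both wild-type copies. Tgfbr2 encodes a receptor for TGF-beta, and human variants of it underlie Loeys-Dietz syndrome, which affects connective tissue. Each library was taken as 1 mouse, and p-values measure the spread between these libraries. The labels give the cells as dental epithelium, and whole dissected organs were used. Libraries are named by genotype and the number pair of their column in the table, such as Het 4-5. The number before the hyphen, called the library prefix, takes the values 1, 4 and 5, and no source used here says what it stands for. Gene counts do not show a single substitution, so the genotype of each library was not checked.

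Potassium channels let potassium leave or enter a cell along its electrochemical gradient, and so set the membrane potential that drives calcium entry and the transport of chloride, bicarbonate and phosphate. In enamel-forming epithelium, ameloblasts move calcium into the enamel and acid and bicarbonate across the cell layer as crystals grow. A channel is built from pore subunits, which fall into voltage-gated, inward-rectifier, tandem-pore and calcium- or sodium-activated classes. Silent voltage-gated subunits form no channel alone and join other pore subunits, and auxiliary subunits change gating, trafficking or conductance.

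The libraries held 18852382 to 26508410 counts over gene rows. Among marker genes, Amelx, Ambn, Enam, Mmp20 and Dlx3 of the secretory ameloblast list were expressed and Sp6 was not. The summed CPM of that list was 150500 to 279460, most of it Ambn. In the maturation ameloblast list 8 of 9 genes were expressed, Slpi being the exception. Its summed CPM was 28267 to 57180, most of it Odam. Markers of other cells were also present. All 8 pericyte and smooth muscle markers, all 7 endothelial markers and all 8 fibroblast and mesenchyme markers were expressed. Skeletal muscle markers summed to 10.7 to 157 CPM, with WT 1-4 highest at 157 and Het 1-2 next at 74.7. No gene of the 12 marker lists passed an adjusted p of 0.05 between Het and WT by edgeR's quasi-likelihood test with Benjamini-Hochberg adjustment. Of all genes tested 0.0857% passed, and list genes with too few counts were not tested. In bulk tissue, fewer cells of a type and less RNA per cell cannot be told apart, which holds for every level below.

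Of the 87 channel genes, 28 were expressed, or 32.2%. Over all 21695 protein-coding genes the same threshold was met by 12606, or 58.1%. The expressed channel genes were 9 of 13 auxiliary subunits, 7 of 27 voltage-gated pore subunits, 5 of 14 tandem-pore channels, 3 of 15 inward rectifiers, 3 of 8 calcium- or sodium-activated pore subunits and 1 of 10 silent subunits. All 13 libraries reached 1 CPM for 18 of the 28. Another 6 genes reached 1 CPM in at least 1 library but in fewer than 5, which brings that count to 34. Kcna10, Kcng3 and Kcnk9 had no count in any library. With 305591619 counts in all, a count of 0 allows a level of up to 0.00982 CPM over the 13 libraries, a limit that covers counting error only.

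**Figure D1:**
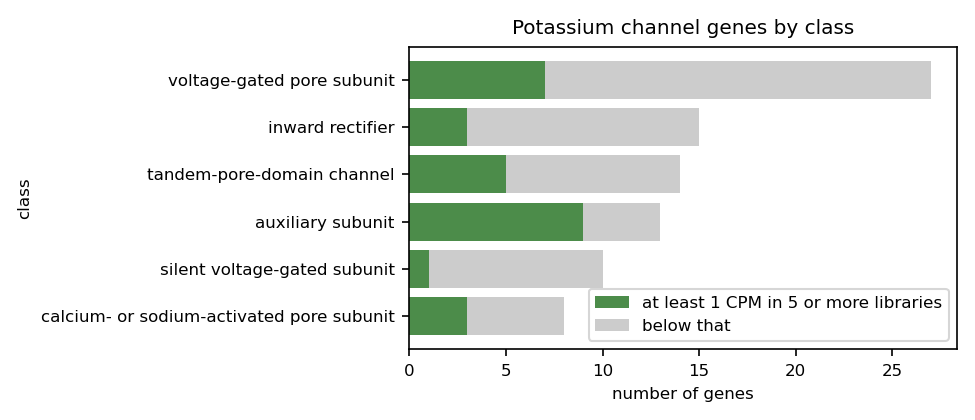
Number of potassium channel genes in each class (x axis), with the part that reached at least 1 CPM in 5 or more libraries in green and the rest in grey. Auxiliary subunits have 9 of 13 genes expressed, voltage-gated pore subunits 7 of 27.

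Levels of different genes were compared as RPKM, the CPM per kilobase of the union of a gene's annotated exons. Summed over the 87 genes, RPKM was 162.1 ± 11.5 (SD, n = 5) in Het and 160.4 ± 14.2 (SD, n = 8) in WT. Kcnk1, Kcnj2 and Kcnn4 together gave 80.4% ± 2.72 of that sum (SD, n = 5) in Het and 81.7% ± 1.62 (SD, n = 8) in WT. The share lay between 76.3% and 84.4% in every library. So 1 tandem-pore channel, 1 inward rectifier and 1 calcium-activated channel held most of the length-scaled RNA of the 87 genes in both genotypes.

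By class, tandem-pore channels summed to 75.1 ± 6.84 RPKM in WT and inward rectifiers to 59.9 ± 11.4 (SD, n = 8). Calcium- or sodium-activated pore subunits summed to 10.1 ± 1.55, auxiliary subunits to 6.80 ± 0.68, voltage-gated pore subunits to 6.06 ± 0.97 and silent subunits to 2.46 ± 0.67. In Het the sums were 82.2, 53.7, 9.19, 7.52, 7.29 and 2.23 RPKM in the same order. The class with the most genes, the voltage-gated pore subunits, here without Kcnd1 to Kcnd3, stood above the silent subunits only.

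The 28 expressed genes spanned WT means from 67.2 RPKM for Kcnk1 to 0.0733 RPKM for Kcnma1. Kcnk1 was above Kcnj2 in 11 of 13 libraries, Kcnj2 above Kcnn4 in 13, and Kcnn4 above Kcnk2 in 13. Kcnn4 took rank 3 in every library. Kcnk2 was above Kcnj15, Kcnj15 above Kcne3, and Kcne3 above Kcns3 in 11 of 13 libraries each. From there neighbours crossed more often: Kcns3 exceeded Kcnh1 in 7 of 13 libraries, Kcnh1 exceeded Kcna3 in 6, and Kcna3 exceeded Kcnj8 in 7. The order of Kcns3, Kcnh1, Kcna3 and Kcnj8 was thus not separated beyond the spread of the libraries. By CPM, with no account of length, Kcnj2 came first and Kcnk1 second.

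**Figure D2:**
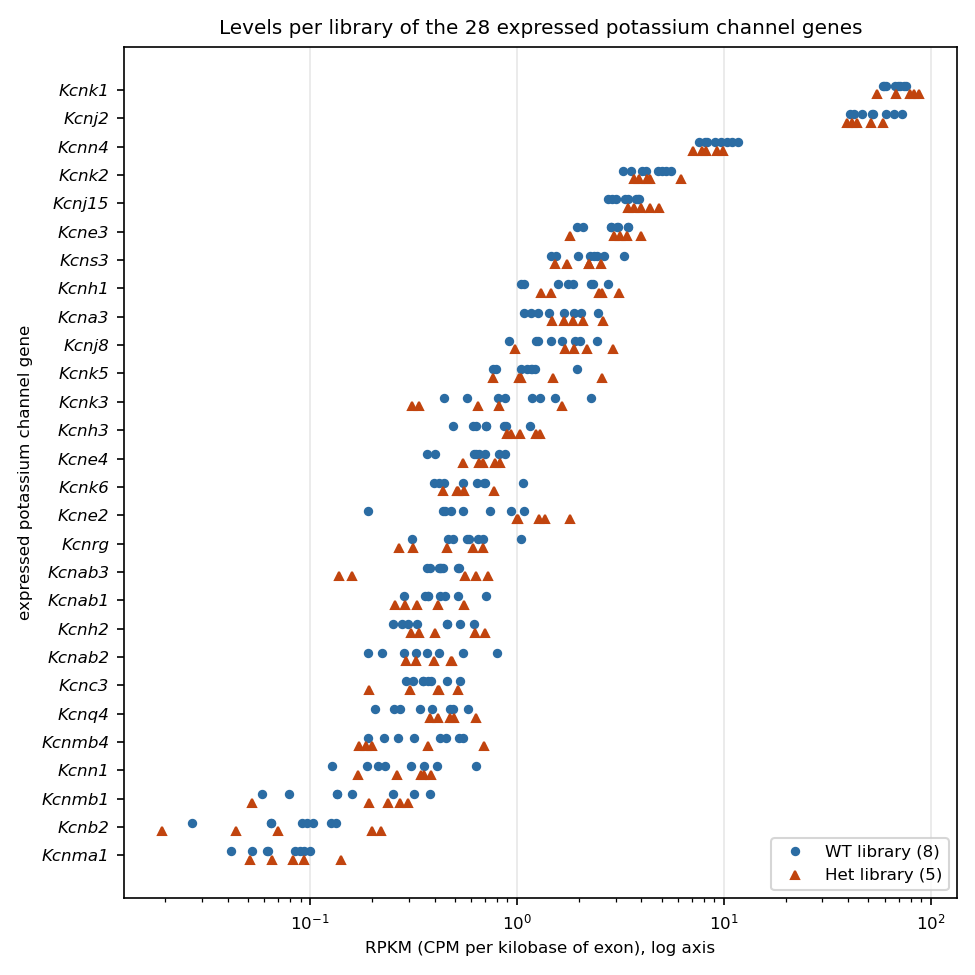
RPKM on a log axis (x) of the 28 expressed potassium channel genes (y, in order of WT mean), with 1 point for each of 8 WT libraries (blue circles) and 5 Het libraries (orange triangles). Kcnk1 and Kcnj2 stand above the rest at WT means of 67.2 and 54.4, Kcnn4 follows at 9.49, and Het and WT points overlap for every gene.

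Among the tandem-pore channels, which pass background potassium current at rest, Kcnk1 (ENSMUSG00000033998, chromosome 8, 125995170 to 126030685, plus strand, GRCm38) was the highest. Its level was 67.2 ± 6.81 RPKM (SD, n = 8) in WT and 74.7 ± 13.2 (SD, n = 5) in Het. Its Het libraries had 197, 123, 177, 152 and 186 CPM in the order 1-2, 4-2, 4-5, 5-5 and 5-6, and the WT libraries ran from 131 to 170 CPM with a median of 153.5. In CPM, Het 4-2 lay below every WT library and 3 Het libraries lay above every one, so the genotypes overlapped. With the TMM factors applied, Het 4-5 lay below WT 1-1, WT 4-3 and WT 5-1. The log2 difference, Het minus WT, was 0.09 ± 0.12 (SE), with a 95% interval of -0.16 to 0.33. Of the exon bases of Kcnk1, 8.01% are shared with the antisense gene Gm45875, which had a mean of 12.2 counts against 3679 for Kcnk1. The libraries carry no strand, so reads there cannot be told apart.

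Kcnk2, a channel opened by membrane stretch and lipids, was the next tandem-pore gene at 4.46 ± 0.84 RPKM (SD, n = 8) in WT and 4.49 ± 1.01 (SD, n = 5) in Het. It shares 12.2% of its exon bases with the antisense A430027H14Rik, which had a mean of 20.3 counts against 520.5 for Kcnk2. Kcnk5, opened by alkaline pH and known from bicarbonate-handling kidney tubule, stood at 1.16 ± 0.36 RPKM in WT, and its highest library of either genotype was Het 4-5 at 8.80 CPM. Kcnk3, an acid-sensitive channel, stood at 1.12 ± 0.59 RPKM in WT and was among the most variable members.

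Kcnk3 had 2.57, 6.58, 3.25, 1.33 and 1.24 CPM in the Het libraries 1-2, 4-2, 4-5, 5-5 and 5-6. In WT it ran from 1.77 to 9.06 CPM with a median of 4.10. Both prefix 5 Het libraries lay below every WT library, while WT 5-3, of the same prefix, was the highest of all. Its log2 difference was -0.67 ± 0.40 (SE), the most negative of the expressed members, with an interval of -1.51 to 0.18. Within prefixes 1, 4 and 5 the difference of means was -0.75, 0.15 and -1.60, so its sign was not the same in all 3. For every gene, the prefix 1 difference sets Het 1-2 alone against WT 1-1, 1-3 and 1-4. Prefix 4 sets Het 4-2 and 4-5 against WT 4-1, 4-3 and 4-4, and prefix 5 sets Het 5-5 and 5-6 against WT 5-1 and 5-3. Without Het 4-2 it was -1.17, without prefix 4 -1.51 and without prefix 5 -0.10, and over all alternative fits the adjusted p was 0.433 to 0.993, by edgeR except where DESeq2 or limma-voom was the alternative.

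Kcnj2 led the inward rectifiers, which hold the resting potential near that of potassium. Loss of function of the human gene causes Andersen-Tawil syndrome, in which tooth anomalies occur. The gene (ENSMUSG00000041695, chromosome 11, 111066164 to 111076821, plus strand, GRCm38) had 54.4 ± 11.3 RPKM (SD, n = 8) in WT and 47.1 ± 8.06 (SD, n = 5) in Het. Its Het libraries had 226, 320, 214, 240 and 281 CPM in the order given above. Its WT libraries ran from 222 to 395 CPM with a median of 285, and Het 4-5 alone lay below all of them. With the TMM factors applied, Het 1-2 also lay below every WT library. The log2 difference was -0.27 ± 0.15 (SE), with an interval of -0.59 to 0.05 and an adjusted p of 0.762 by edgeR's quasi-likelihood test. Within prefixes 1, 4 and 5 it was -0.49, -0.27 and -0.14.

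Kcnj15, an inward rectifier of kidney and other epithelia, had 27.6, 25.0, 30.6, 23.2 and 21.9 CPM in the Het libraries and 17.5 to 24.7 in WT, with a median of 21.4. In CPM, all 5 Het libraries were above the WT median, and 3 were above every WT library. With the TMM factors applied, Het 4-2 lay below WT 1-3 and WT 1-4. The log2 difference was 0.20 ± 0.11 (SE), with an interval of -0.02 to 0.42 and an adjusted p of 0.753 by edgeR's quasi-likelihood test. Kcnj8, the pore of a channel closed by ATP that is known from vascular smooth muscle and pericytes, stood at 1.61 ± 0.49 RPKM in WT. Abcc9, which encodes its sulfonylurea-receptor partner, was expressed as well, at 7.96 ± 2.15 CPM (SD, n = 8) in WT. The corresponding pair of pancreatic beta cells, Kcnj11 and Abcc8, was below the expression threshold. Abcc9 is also in the list of pericyte and smooth muscle markers, whose sum was 6498 to 14936 CPM, most of it Rgs5. The part of those cells in the level of Kcnj8 was not tested.

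Kcnj1, the secretory potassium channel of kidney, was not expressed. It had 18 counts in all, in WT 4-1, WT 4-4 and WT 5-1, and none in the 5 Het libraries, where a count of 0 allows up to 0.0256 CPM. The other inward rectifiers were below the threshold too, and Kcnj9, a subunit of channels opened by G proteins, came nearest with a fifth-highest library of 0.727 CPM.

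Kcnn4 encodes the calcium-activated channel of intermediate conductance, which in secretory epithelia and lymphocytes keeps the membrane polarised while calcium enters. The gene (ENSMUSG00000054342, chromosome 7, 24370263 to 24386690, plus strand, GRCm38) stood at 9.49 ± 1.47 RPKM (SD, n = 8) in WT and 8.48 ± 1.11 (SD, n = 5) in Het. Its Het libraries had 40.2, 42.1, 50.6, 36.5 and 47.5 CPM. Its WT libraries ran from 38.8 to 60.1 CPM with a median of 48.2, so the ranges overlapped, with Het 5-5 alone below all WT. With the TMM factors applied, Het 1-2 also lay below every WT library. The log2 difference was -0.23 ± 0.11 (SE), with an interval of -0.47 to 0.01 and an adjusted p of 0.741 by edgeR's quasi-likelihood test. It was -0.49, -0.20 and 0.02 within prefixes 1, 4 and 5.

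Kcnma1, the large-conductance channel opened by calcium and voltage together, had the lowest WT mean per length of the expressed members, at 0.0733 ± 0.0213 RPKM. Kcnb2 was above it in 7 of 13 libraries. With the longest transcript as length, Kcnma1 ranked 27 and Kcnb2 28. Kcnmb1 and Kcnmb4, auxiliary subunits of Kcnma1 of which the first is known from smooth muscle, were expressed at 0.190 and 0.369 RPKM. The related Kcnmb2 and Kcnmb3 were not expressed. Kcnmb1 was also the expressed gene nearest the threshold, with a fifth-highest library of 1.06 CPM, and the most variable in WT, where its log2 CPM had an SD of 0.81. Kcnrg, a regulator that hinders the assembly of voltage-gated channels, came next at a fifth-highest level of 1.12 CPM. The nearest gene outside was Kcna6, a voltage-gated pore subunit, at 0.952 CPM. Kcna6 shares 39.6% of its exon bases with the antisense Gm26673, which had a mean of 0.154 counts against 21.8 for Kcna6.

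Kcnh1, an ether-a-go-go channel, had the highest WT mean of the voltage-gated pore subunits, at 1.84 ± 0.60 RPKM (SD, n = 8) in WT and 2.19 ± 0.78 (SD, n = 5) in Het. Kcna3, known as the voltage-gated channel of lymphocytes, had 1.63 ± 0.48 RPKM in WT and exceeded Kcnh1 in 7 of 13 libraries. Its CPM ran from 2.83 to 4.98 in Het and from 2.07 to 4.67 in WT. The immune marker Cd3e of T cells was not expressed, while Cd79a of B cells was, at 0.995 to 2.57 CPM. In all, 8 of 9 immune markers were expressed, with sums of 70.0 to 155 CPM. Kcns3, the single expressed silent subunit, which joins channels of the Kcnb type, stood at 2.24 ± 0.60 RPKM. Its partner Kcnb2 was expressed at 0.0883 RPKM.

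Kcnq1, the pore that works with Kcne subunits in heart, inner ear, stomach and gut, was below the threshold. Most libraries had 0.127 to 0.592 CPM, Het 4-5 had 1.49 and WT 4-4 had 2.57. Kcne1, its partner in heart and inner ear, had 18 counts in all libraries together. Its partners in gut and stomach, Kcne3 and Kcne2, were expressed, at 2.84 ± 0.56 and 0.609 ± 0.292 RPKM (SD, n = 8) in WT. Kcne2 reached 1 CPM in 3 of 8 WT libraries and all 5 Het libraries, so it met the threshold through the Het libraries. Kcne4, another auxiliary subunit of the family, was expressed at 0.634 ± 0.178 RPKM. Kcnq1ot1, the long antisense RNA within Kcnq1, was at 104 ± 13.4 CPM (SD, n = 8) in WT and 115 ± 15.8 (SD, n = 5) in Het, and its log2 difference was 0.07 ± 0.10 (SE). It shares 121 exon bases with Kcnq1, and with unstranded reads the counts there cannot be told apart.

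The comparison of Het with WT asks how the receptor substitution bears on the enamel organ. Of 16328 genes tested, 14 passed an adjusted p of 0.05 by edgeR's quasi-likelihood test with Benjamini-Hochberg adjustment, or 0.0857%. The test covered 36 channel genes, the 28 expressed and 8 below the expression threshold, and none of them passed. Their log2 differences were positive for 18 and negative for 18, with a median of -0.0051, against -0.0044 over all genes tested. At an unadjusted p under 0.05, 2 channel genes were higher in Het (Kcne2 and Kcnh3) and 0 lower. With the library prefix as a term, 3 channel genes were under 0.05, beside 9.82% of all genes, and all 3 were higher in Het: Kcne2, Kcnh1 (log2 difference 0.33, against 0.18 without the term) and Kcnj15 (0.22). Kcnh3 was then at an unadjusted p of 0.0513. Without the term 6.90% of all genes met that threshold, 2.72% as higher and 4.18% as lower. DESeq2 and limma-voom also called 0 channel genes. For no channel gene were the Het and WT ranges of log2 CPM apart, which was so for 0.490% of all genes.

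The median SE of the 36 log2 differences was 0.277. It was 0.431 for the 18 genes with a mean under 2 CPM, 0.231 for the 12 from 2 to 10 CPM and 0.130 for the 6 at 10 CPM or more. Single genes did not follow level: Kcnj2, the highest by CPM, had an SE of 0.15 and Kcnj15 one of 0.11. By class, 6 of 10 tested voltage-gated pore subunits, 3 of 5 inward rectifiers, 2 of 6 tandem-pore channels, 3 of 5 calcium- or sodium-activated subunits, 4 of 9 auxiliary subunits and 0 of 1 silent subunits had positive differences. The differences ran from -0.74 for Kcnk10, a tandem-pore channel below the expression threshold, to 0.99 for Kcne2.

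**Figure D3:**
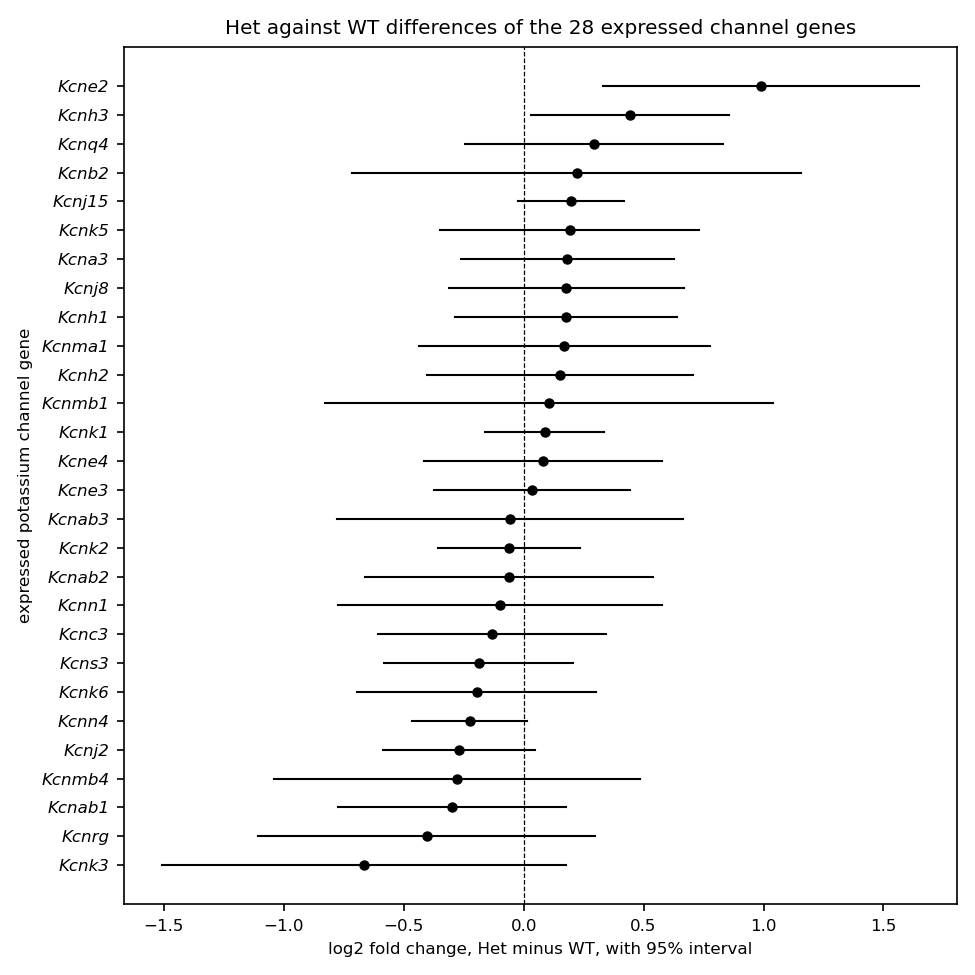
Log2 difference, Het minus WT, of the 28 expressed potassium channel genes (x axis), with points for estimates and lines for 95% intervals. There are 15 positive and 13 negative estimates, and the intervals of Kcne2 and Kcnh3 alone lie above 0.

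Kcne2 had the smallest p of the channel genes. It encodes a small subunit with a single membrane span that partners Kcnq1 in gastric parietal cells and other pores elsewhere. The gene (ENSMUSG00000039672, chromosome 16, 92292389 to 92298129, plus strand, GRCm38) had 2.42, 1.77, 3.18, 2.25 and 1.78 CPM in Het 1-2, 4-2, 4-5, 5-5 and 5-6. In WT it had 0.796, 0.975 and 0.779 CPM in 1-1, 1-3 and 1-4, then 1.31, 0.846 and 0.337 in 4-1, 4-3 and 4-4, and 1.66 and 1.90 in 5-1 and 5-3. These values rest on 40 to 83 counts a Het library and 8 to 46 a WT library. In CPM, all but 1 WT library, WT 5-3, lay below every Het library, and 3 of 5 Het libraries lay above every WT library. With the TMM factors applied, WT 5-1 also lay above Het 4-2.

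The log2 difference of Kcne2 was 0.99 ± 0.31 (SE), with a 95% interval of 0.33 to 1.65. Its unadjusted p was 0.00528 and its adjusted p 0.420 by edgeR's quasi-likelihood test, so it did not pass. Within prefixes 1 and 4 the difference was 1.33 and 1.46, and within prefix 5 it was 0.15, where the 2 WT libraries were the highest of their group. Whether the difference itself varies with prefix was not tested. Over the alternative fits it ran from 0.77 to 1.42, with adjusted p from 0.166 to 0.993.

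Kcnh3, a voltage-gated pore subunit known mostly from brain, had 5.18, 5.96, 7.08, 5.41 and 7.45 CPM in the Het libraries and 2.82 to 6.66 in WT, with a median of 4.08. In CPM, all but 1 WT library, WT 5-3, lay below every Het library. With the TMM factors applied, WT 1-4 and WT 4-1 also lay above Het 1-2. The log2 difference of Kcnh3 was 0.44 ± 0.20 (SE), with an unadjusted p of 0.0359 and an adjusted p of 0.699 by edgeR's quasi-likelihood test. Within prefixes 1, 4 and 5 it was 0.19, 0.68 and 0.27.

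**Figure D4:**
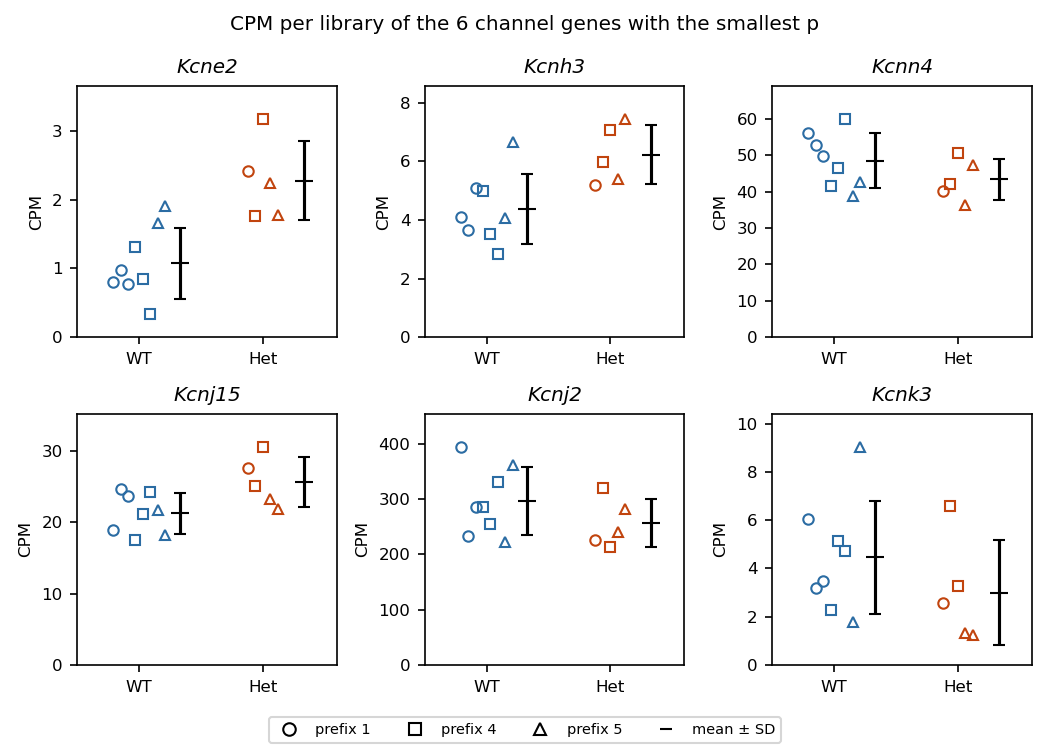
CPM per library (y axis) of the 6 expressed potassium channel genes with the smallest unadjusted p, in 8 WT (blue) and 5 Het (orange) libraries, with marker shapes for the library prefix and bars for the mean ± SD. The Het libraries of Kcne2 lie at 1.77 to 3.18 and the WT libraries at 0.337 to 1.90, and the genotypes overlap in all 6 panels.

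The library prefix was tested with genotype held in the model. Of 16328 genes, 992 passed, or 6.08%, and of the 36 channel genes 1 passed, Kcnh1, with an adjusted p of 0.00504 by edgeR's quasi-likelihood test. Its mean was 17.4 CPM in prefix 1, 16.5 in prefix 4 and 8.99 in prefix 5. The 4 libraries of prefix 5 had 7.65 to 10.7 CPM, below each of the other 9, which had 11.6 to 22.9. In prefix 5 the Het libraries had 9.61 and 10.7 CPM and the WT libraries 7.96 and 7.65. It passed in each of 18 fits, with adjusted p of at most 0.0272.

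Of the 12 marker sums, which were not tested against the prefix, 1 set a prefix apart from all other libraries and 11 overlapped. How often a prefix stood apart in this way over all genes is not given here. The 8 fibroblast and mesenchyme markers summed to 4157 to 6074 CPM in prefix 5 and 6134 to 12228 in the other 9 libraries. The secretory ameloblast markers summed to 255370 to 279460 CPM in prefix 5, and 8 of the other 9 libraries lay below all 4. The part of either in the level of Kcnh1 was not tested.

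Kcnh2, the pore of a repolarising current of the heart, had 2.23 to 3.40 CPM in prefix 4 and 1.22 to 2.23 in the others, with an adjusted p of 0.0571 for the prefix by edgeR's quasi-likelihood test. DESeq2's likelihood ratio test gave it 0.0128, and edgeR without WT 1-3 gave 0.0380. Kcnj8 had means of 4.33, 5.55 and 3.10 CPM in prefixes 1, 4 and 5, with an adjusted p of 0.0757 by edgeR and 0.0186 by DESeq2. Kcnab1, a cytosolic auxiliary subunit, had means of 2.77, 4.01 and 3.69 CPM and an adjusted p of 0.229 by edgeR.

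**Figure D5:**
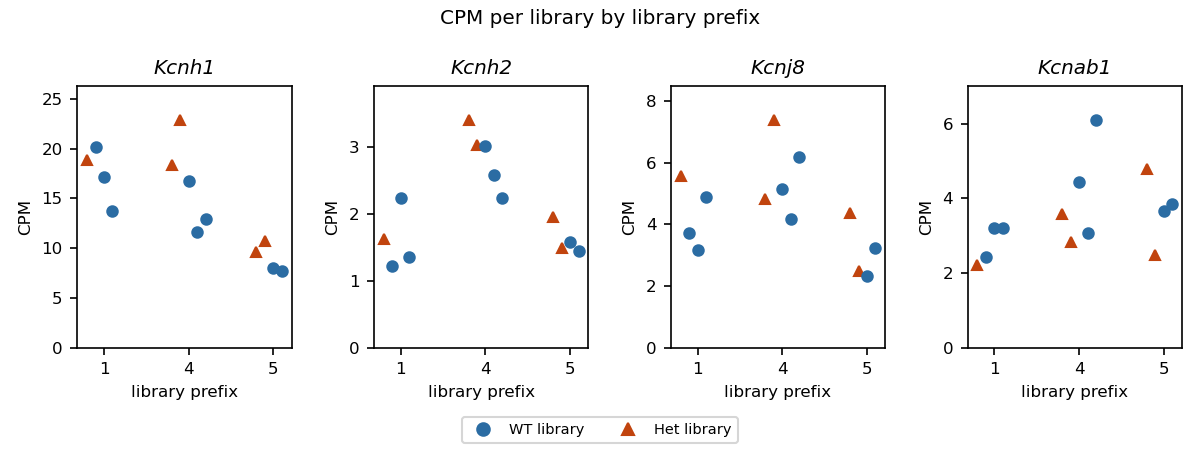
CPM per library (y axis) of the 4 expressed potassium channel genes with the smallest p for the library prefix, by prefix (x axis), with WT libraries as blue circles and Het libraries as orange triangles. For Kcnh1 the 4 prefix 5 libraries lie at 7.65 to 10.7, below the other 9.

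Potassium is also moved by pumps, cotransporters and exchangers. A list of 38 genes held these, channel partners and organelle potassium channels outside the Kcn names. Of the list, 25 were expressed and 26 tested, with 16 positive and 10 negative log2 differences and a median of 0.071. None passed the threshold, which 0.0857% of all genes tested did. At an unadjusted p under 0.05 by edgeR's quasi-likelihood test, 1 was higher and 0 lower, beside 2.72% and 4.18% of all genes. Over all genes tested, 8023 differences were positive and 8305 negative, with a median of -0.0044. Among the highest length-scaled levels in WT, Atp1b3, a subunit of the sodium-potassium pump, had 67.6 ± 7.68 RPKM (SD, n = 8). Slc12a4, a potassium-chloride cotransporter, had 55.4 ± 7.88 RPKM and the pump regulator Fxyd4 37.4 ± 6.32. Kcnk1 and Kcnj2 were thus at levels of the same order as Atp1b3 and Slc12a4.

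The smallest p in that list was that of Fxyd2, a pump regulator of kidney, at 3.40 CPM in Het and 1.95 in WT. Its log2 difference was 0.73 ± 0.26 (SE), with an adjusted p of 0.562 by edgeR's quasi-likelihood test. Slc24a4, the potassium-dependent sodium-calcium exchanger required for enamel mineralisation, had -0.23 ± 0.11 (SE), Fxyd4 had -0.23 ± 0.13 and Slc12a5, a cotransporter below the expression threshold, had 0.52 ± 0.35. Their adjusted p were 0.730, 0.762 and 0.794 by the same edgeR test.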

How the data were processed

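The authors deposited raw counts per gene for 13 libraries, from which every value here was computed. Per the labels' protocols, total RNA went into unstranded Nextera XT libraries read as single reads in 2 runs, with no run given per library. Per the submitters' processing notes, STAR 2.5.2a and GRCm38 were used; no source used here names the counting tool or annotation. Columns name the genotype but no replicate number. The 24 spike-in and transgene rows, at most 0.000177% of a library's counts, were left out. Symbols came from the reference table (48349 of 48709 genes), positions and exon lengths from GENCODE M21 on GRCm38. The lowest chi-square between libraries was 10.5 per gene over 78 pairs, so none was a repeat.

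CPM is counts over the library total. Tests used edgeR 4.0.16 in R 4.3.3, with TMM and filterByExpr at a count minimum of 10. They were robust quasi-likelihood F tests with Benjamini-Hochberg adjustment over 16328 genes and a threshold of 0.05. The fits were checked on simulated counts that gave every gene the same spread, so genes of unequal spread were not covered. In the data the common biological coefficient of variation was 0.227. SE came from the F statistic. Differences within a prefix were of mean log2 CPM with a prior count of 2. Alternatives were DESeq2 1.42.0, limma 3.58.1 with voom, other scalings and filters, the prefix as a term, and omitted libraries.

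Named genes were the 12 highest per length, the 6 smallest genotype p, the 4 largest WT SD, the 4 smallest prefix p, the 2 on each side of the expression threshold, and 10 of known role, and in the transport list the 4 smallest p and the 4 highest. The results of some genes are not reported here. Others were named to complete a class or pair, after their values were seen. The members and lists were chosen with earlier results of these data known.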

Additional observations from a re-analysis of the deposited data

Results flagged for a closer look

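Dixon's test at the 95% level was applied to each genotype's CPM of the named channel genes that were tested, and 2 of 46 groups of libraries stood out, where chance flags about 1 in 20. Kcnb2 had 0.406 CPM in WT 1-3, below the other WT libraries at 0.981 to 2.02. Kcnq1 had 2.57 CPM in WT 4-4, above the other WT libraries at 0.127 to 0.492. Neither gene passed a test between genotypes.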

How the results depend on the processing

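No channel gene passed the Het against WT threshold under any alternative. Over all genes the count of 14 became 27 with no filter, 25 with 1 CPM in 5 libraries, 74 with DESeq2, 25 with limma-voom, 30 with the prefix as a term, 6 to 22 without 1 library (6 without Het 4-2 or Het 5-6, 7 without Het 5-5, 8 without Het 1-2 or WT 1-1, 9 without WT 1-4, 22 without WT 5-1), 0, 1 and 2 without prefix 1, 4 or 5, and 2 without Het 1-2 and WT 1-4. The count of 0 without prefix 1 stands beside 731 genes at an unadjusted p under 0.05 by edgeR, and no other tool was run on it. The cause was not tested, beyond fewer libraries. The 28 expressed genes became 18 at 2 CPM in 5 libraries and 18 at 1 CPM in all 13. In the main fit the prefix called 1 channel gene, beside 6.08% of all genes tested. It called 3 with DESeq2's likelihood ratio test and 1 to 2 without 1 library (2 without WT 1-3). Shares of all genes are not given for those fits, so their counts are not a result about channel genes.

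Of 23 named genes followed, 12 kept the sign of their difference in every fit and 11 did not, with 34 sign changes in 572 values, all between values that missed the threshold. Limma-voom gave 0.43 for Kcnj9 and 0.36 for Kcnq1, and the prefix term gave 0.0011 for Kcnk2. Without prefix 1, Kcnb2 was -0.42, Kcne3 -0.10, Kcnk2 0.11 and Kcnmb1 -0.075. Without prefix 4, Kcnh1 was -0.060. Without prefix 5, Kcna6 was 0.13, Kcnmb1 -0.44 and Kcnq1 0.18. Without Het 1-2 and WT 1-4, Kcnb2 was -0.23, Kcne3 -0.042, Kcnk2 0.025 and Kcnmb1 -0.11. Without 1 library in turn, the values ran from -0.50 to 0.15 for Kcna6, -0.17 to 0.49 for Kcnb2, -0.059 to 0.18 for Kcne3, -0.026 to 0.27 for Kcnh2, -0.17 to 0.00011 for Kcnk2, -0.12 to 0.34 for Kcnk5, -0.065 to 0.31 for Kcnma1, -0.095 to 0.35 for Kcnmb1 and -0.62 to 0.77 for Kcnq1. No paired analysis was possible because the columns carry no replicate numbers from the labels, and whether the prefix pairs mice is not known; it was fitted as a term only. Depth limits the genes near 1 CPM.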

Other observations

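Kcnab3, a cytosolic auxiliary subunit singled out after its values were seen, was spread widely in Het and narrowly in WT. It had 1.83, 0.397, 2.07, 0.458 and 1.61 CPM in Het 1-2, 4-2, 4-5, 5-5 and 5-6, and 1.06 to 1.51 CPM in the 8 WT libraries. Thus 3 Het libraries lay above every WT library and 2 below every one, and its log2 difference was -0.06 ± 0.35 (SE). The difference in spread was not tested. Kcnb2 had 2 Het libraries above and 1 below every WT library.

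By CPM, 9 of the 28 expressed channel genes were highest in Het 4-5 and 7 in WT 4-4. WT 4-4 also had the lowest secretory ameloblast marker sum of the 13 libraries, 150500 CPM, and the highest maturation ameloblast sum, 57180. Those sums were mostly Ambn and Odam, with means of 198090 and 41067 CPM over the libraries, so they largely give the level of 1 gene each. WT 4-4 had the highest sums of fibroblast (12228), pericyte (14936, most of it Rgs5), osteoclast (444), odontoblast (1263) and endothelial (115) markers too. Its erythroid sum, 355.71, was the highest by a hair, beside 355.70 in Het 5-5. Their part in the count was not tested. The lowest CPM fell in Het 4-2 for 5 genes and in WT 1-1 for 5. These counts take no account of the TMM factors, which were 1.09 in Het 4-5, the largest of all, and 1.03 in WT 4-4. The share over all genes was not computed, so the counts are not a result about channel genes.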
